A study of Bos taurus with 12 samples.

Results

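The microRNA bta-miR-122 (miRBase hairpin MI0005063) was followed through every library of a small RNA sequencing study of bovine longissimus muscle. It is 1 of 2712 features in the deposited table and was taken by its identifier, which the study's tables pair with the name. The steers were Angus-cross yearlings by a single sire, and 4 of them, picked by the study for an intramuscular fat content near the mean at d 92 and d 124, were sampled by needle biopsy 3 times in the course of time-on-concentrates (TOC), at d 0, at d 92 and at d 124, which makes 12 libraries. The group at d 0 had not yet started the high concentrate diet, and no steers were kept off the diet, so TOC and age cannot be told apart. The biopsy moved from the left to the right side of the animal at d 92. At d 124 it was back on the left side, at the next rib, so TOC and biopsy site cannot be told apart either. Each value is a normalized level on the log2 scale, made by the authors by quantile normalization and put back onto an absolute scale from levels that libraries share. Quantile normalization gives all libraries the same set of levels, so a level stands for a rank within its library and the depth of single libraries is unknown.

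A microRNA is cut from a hairpin precursor and loaded into an Argonaute protein, where bases near its 5′ end, the seed, pair with messenger RNAs and lower their translation or stability. miR-122 is best known as the dominant microRNA of hepatocytes, where it acts on cholesterol and fatty acid metabolism, and its level in skeletal muscle is usually far lower. It also circulates in blood plasma. In the annotation of ARS-UCD2.0, a later build than the bosTau4 assembly the authors aligned to, MIR122 lies on chromosome 24 outside of other genes, between the protein-coding genes NEDD4L and ALPK2. The table lists it once, under its hairpin identifier, so reads of its 2 arms cannot be told apart here.

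Before the diet, at d 0, bta-miR-122 stood at 10.23 in steer 1, 8.01 in steer 2, 8.14 in steer 3 and 9.89 in steer 4. At d 92 it was 9.46, 9.35, 9.95 and 13.36 in the same order of steers. At d 124 it was 8.25, 9.47, 10.18 and 10.29. The 3 times overlapped (in whole muscle tissue, fewer cells of a type and less RNA per cell cannot be told apart), and the highest value, at d 92 of steer 4, lay 3.07 above the next. On the linear scale this library had a level of 10503, against 258 to 1249 in the other 11, which is 0.668% of its summed levels against 0.0166% to 0.0792%.

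**Figure D1:**
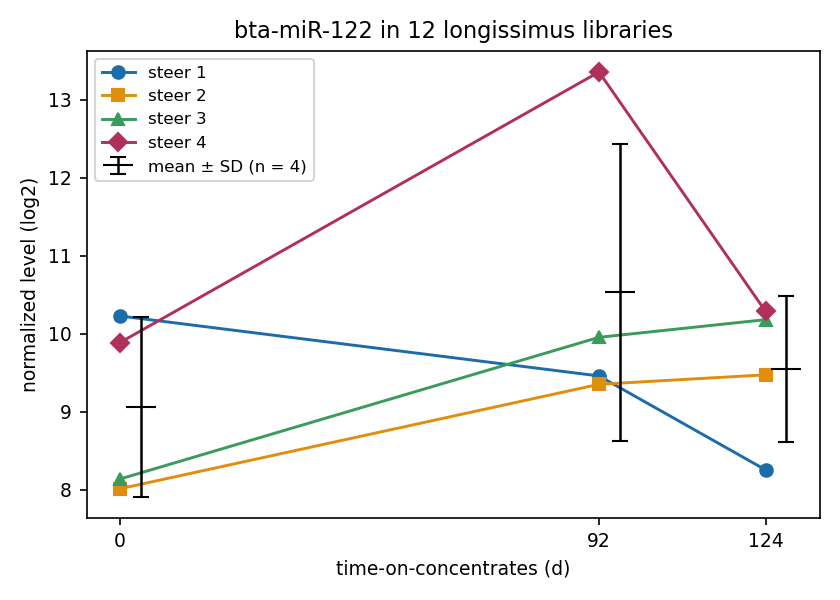
Normalized level of bta-miR-122 (log2) against time-on-concentrates (d) in 4 steers, 1 line per steer, with the mean and SD of each time in black. Steers 2 and 3 were higher at d 92 and d 124 than at d 0, steer 1 was lower, and steer 4 had a single high value of 13.36 at d 92.

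Among the 360 miRNA features tested, bta-miR-122 ranked between 103 and 153 from the top in 11 libraries and 39 in the d 92 library of steer 4. In order of level, the 12 libraries fell into 3 low ones, between 8.01 and 8.25, 8 between 9.35 and 10.29, and the high one. The low ones were the d 0 libraries of steers 2 and 3 and the d 124 library of steer 1. A gap of 1.10 parted them from the rest, which is under the SD of 1.39 within times, and other neighbours in the lower 11 differed by 0.42 or less. The gap below the highest library was larger than the SD within times. That SD includes the highest library itself, and the gap of 1.10 was larger than the SD of the other 11 libraries, which was 0.865. The latter SD is taken across times and includes this gap. The 3 sets were read from the sorted values, so neither SD tests them.

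The first comparison asked whether bta-miR-122 changed between the start and d 92 of TOC. Its mean level at the start was 9.07 ± 1.15 (SD, n = 4). At d 92 the mean was 10.53 ± 1.90 (SD, n = 4), a log2 difference of 1.47 (standard error 0.90, 95% interval -0.52 to 3.45, adjusted p = 0.891 from limma). The difference was within the spread between libraries (p = 0.257, exact permutation of the 8 libraries, two-sided), and within steers it missed the threshold too (exact sign-flip permutation test over 16 signs, p = 0.25, where 0.125 is the smallest possible). It was higher at d 92 in 3 of 4 steers, by 1.34, 1.82 and 3.47 in steers 2, 3 and 4, and fell by 0.77 in steer 1. The interval of the fold change ran from 0.695 to 10.96 and so held both no change and a large rise. Leaving out d 92 replicate 4, which is steer 4, brought the log2 difference to 0.52. Of the 360 features, 4 had a larger log2 difference than bta-miR-122, but by p-value it ranked 53, and its standard error ranked 3 from the largest.

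At the same comparison limma called 0 of 360 features at an adjusted p under 0.05 (0%), and 19 (5.28%) had an unadjusted p under 0.05, 8 of them higher at d 92 and 11 lower. bta-miR-122 was in neither count (unadjusted p = 0.133 from limma). The median level of the tested features, averaged over libraries, fell from 7.30 at d 0 to 7.11 at d 92 and 6.99 at d 124. With each library centred on that median, 24 features had an unadjusted p under 0.05, 16 of them higher and 8 lower, and bta-miR-122 was among those higher. Its log2 difference was then 1.66 (95% interval 0.0046 to 3.31, unadjusted p = 0.049 and adjusted p = 0.695 from limma), so the unadjusted call turned on the scaling and the adjusted one did not.

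At d 124 the mean level of bta-miR-122 was 9.55 ± 0.94 (SD, n = 4), a log2 difference of 0.48 from d 0 (standard error 0.90, 95% interval -1.51 to 2.47, adjusted p = 0.936 from limma). The steers did not move together. Steer 1 fell by 1.97, the opposite of steers 2, 3 and 4, which rose by 1.46, 2.04 and 0.40. The difference was within the spread between libraries (two-sided exact permutation test, p = 0.543) and within that of the changes in single steers (exact sign-flip permutation test, p = 0.625). This comparison shares its d 0 libraries with the first. Left out in turn, d 0 replicate 1 and d 124 replicate 1, both of steer 1, gave 0.87 and 0.91. It was 0.13 and 0.17 without d 0 replicates 2 and 3, 0.27 and 0.24 without d 124 replicates 3 and 4, and 0.76 without d 0 replicate 4. Of the 360 features, 0 (0%) had an adjusted p under 0.05 and 25 (6.94%) an unadjusted one, 6 higher and 19 lower. With the libraries centred, the log2 difference of bta-miR-122 was 0.80, and 55 features passed the unadjusted limit, 44 higher and 11 lower. Centring moves all features by the same amount, so the direction of most calls at d 124 depends on the scaling.

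Between d 92 and d 124 the level of bta-miR-122 differed by -0.98 (standard error 0.90, 95% interval -2.97 to 1.01, adjusted p = 0.978 from limma; two-sided exact permutation test, p = 0.543). The changes in steers 2 and 3 were small, at 0.12 and 0.23, while steer 1 fell by 1.21 and steer 4 by 3.07. The difference was -0.040 when d 92 replicate 4 was left out and -0.55 when d 124 replicate 1 was. Of the 360 features, 0 (0%) had an adjusted p under 0.05 and 7 (1.94%) an unadjusted one, 3 higher and 4 lower (6 and 1 with the libraries centred).

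**Figure D2:**
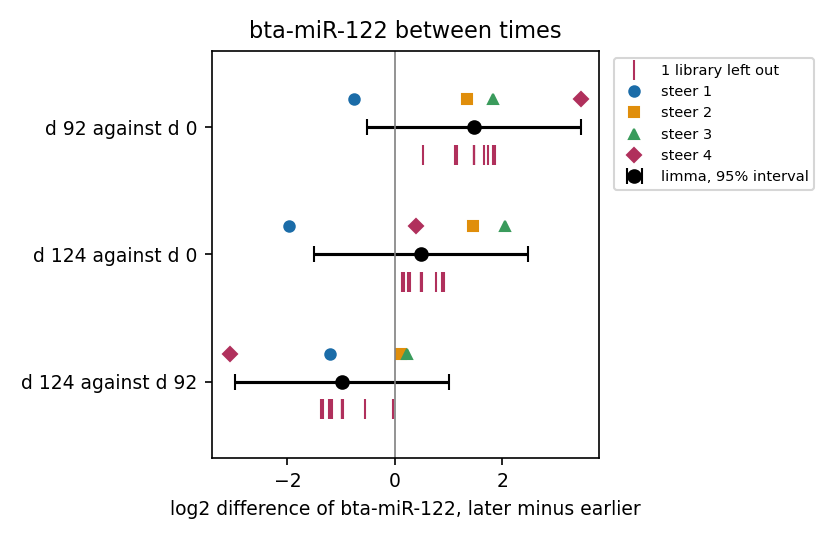
Log2 difference of bta-miR-122 in the 3 comparisons of times (later minus earlier). Black points are limma estimates with 95% intervals, coloured symbols the change within each steer, and ticks the estimates with 1 library left out; all 3 intervals include 0, and steer 1 lay below 0 in each comparison.

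Over all 3 times together, bta-miR-122 gave an F of 1.15 (exact permutation test over all regroupings, p = 0.368). With times exchanged only within a steer the F was 1.56 (exact permutation test over 1296 arrangements, p = 0.292). Steers were compared by their deviations from the mean of each time. The mean deviation was -0.40 in steer 1, -0.77 in steer 2, -0.29 in steer 3 and 1.46 in steer 4, a range of 2.23 (exact permutation test of the variance of these 4 means over 576 arrangements within times, p = 0.253). Without the d 92 library of steer 4 the range was 1.24 (exact permutation p = 0.549). With 1 library per steer and time, a difference between steers in the course over TOC could not be tested.

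The spread of bta-miR-122 stood out for a miRNA of its level. Its SD over the 12 libraries was 1.41, while 48 features with a mean level within 1 (log2) of it had SDs between 0.282 and 0.954, with a median of 0.501. The SD of bta-miR-122 ranked 4 of 360, and the 3 features above it had low mean levels of 1.42, 2.16 and 1.62 and were at the floor in 7, 3 and 2 libraries. Without the d 92 library of steer 4 the SD of bta-miR-122 was 0.865 and ranked 72 of 360. The same 48 features then had SDs between 0.290 and 0.999, with a median of 0.516 and a 95th percentile of 0.863. The SD of bta-miR-122 was thus still high for its level.

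**Figure D3:**
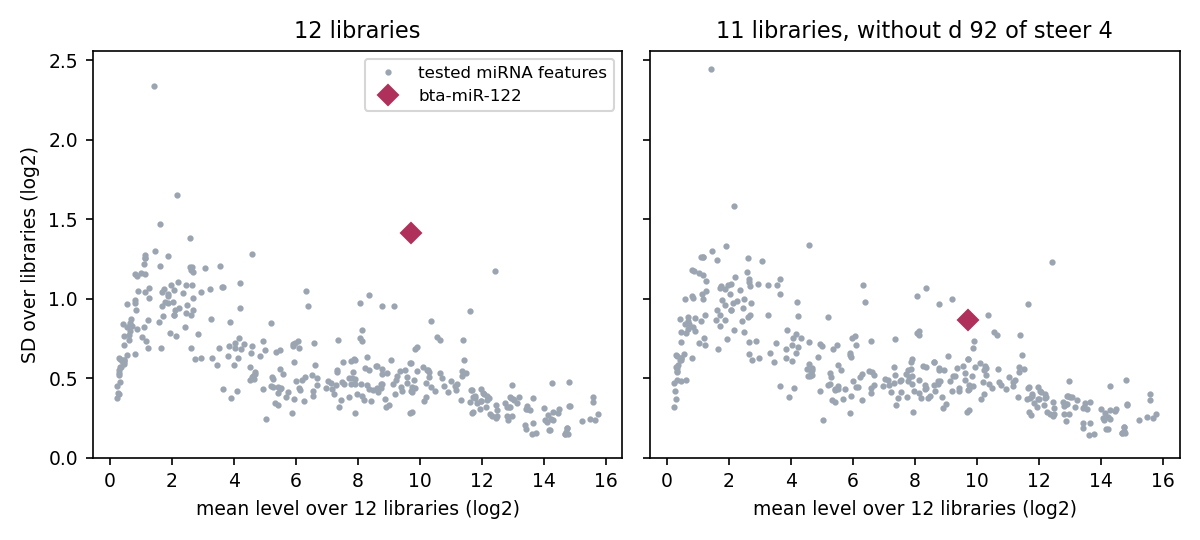
SD over libraries (log2) against mean level (log2) for the 360 tested miRNA features, with all 12 libraries on the left and without d 92 of steer 4 on the right. The diamond is bta-miR-122, which lay above all features of similar level with 12 libraries and in the upper part of their range with 11.

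In the d 92 library of steer 4 the tested features deviated from their own medians by a median of 0.025, on values that quantile normalization had already put on the same set of levels. There 12 features were at their highest, and 5 lay 1 or more above all other libraries, against 0 to 13 such features in each of the others. bta-miR-122 had the largest gap of the 5, at 3.07. Of the other 4, 3 were at the floor in 2 to 5 of the other libraries, and the last, MI0005035, singled out after its values were seen, was above the floor in every library. MI0005035 was at 9.84 there and between 7.62 and 8.81 in the other 11, a gap of 1.03. The sources used here do not pair this identifier with a name.

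Markers of blood cells, slow muscle fibres and adipose tissue were read in the same library. miR-144, made in erythroid cells, was at 12.24 against 9.95 to 14.51 in the other libraries, and miR-142, made in blood-forming cells, was at 11.68 against 9.85 to 13.40. miR-208b, whose gene lies inside the slow myosin gene MYH7, was at 10.48, which ranked 2 of the 12 libraries, and the others lay between 8.68 and 11.06. miR-196b, miR-196a-2 and miR-196a-1, which lie in the HOX clusters and are expressed in fat, were at 7.96, 9.37 and 8.58, each within the range of the other libraries. All 6 of these markers had their highest value elsewhere, as did all but 12 of the 360 tested features. Over the 12 libraries their Spearman correlations with bta-miR-122 were 0.23 for miR-144, 0.14 for miR-142, 0.15 for miR-208b and between 0.06 and 0.15 for the miR-196 genes. At d 92 against d 0, miR-144 rose by 1.54 (unadjusted p = 0.040, adjusted p = 0.869 from limma). miR-142 rose by 0.81, while miR-208b, miR-196b, miR-196a-2 and miR-196a-1 differed by -0.43, -0.72, -0.76 and -0.83. miR-144 was lowest in the d 0 libraries of steers 2 and 3, at 9.95 and 11.01, where bta-miR-122 was lowest too. A part of blood content in the change of bta-miR-122 was not tested. Other miRNAs of liver, muscle and blood are in the table only as identifiers without names, so a part of RNA from liver or plasma in the high value was not tested.

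The features that vary with bta-miR-122 were taken by a Spearman correlation of 0.7 or more in absolute value, both over all 12 libraries and over the 11 without its highest. The libraries share steers and a normalization, so the correlations are descriptions and carry no p-value. Of 359 other tested features, 15 (4.18%) were taken, all with a positive correlation, while the median correlation of the 359 was 0.24 and 260 of them were above 0. The closest was MI0005033, with 0.83 over 12 libraries and 0.87 over 11, followed by MI0005019 with 0.79 and 0.86. The last feature inside the limit had 0.71 and 0.82, and the first outside had 0.70 and 0.69. The negative feature nearest to the limit had -0.72 and -0.69. Among the 15, MI0012211 and MI0004748 took nearly the same course over the libraries, at mean levels of 12.49 and 12.46. The 15 are therefore not all separate profiles, and counts out of 15 include both.

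**Figure D4:**
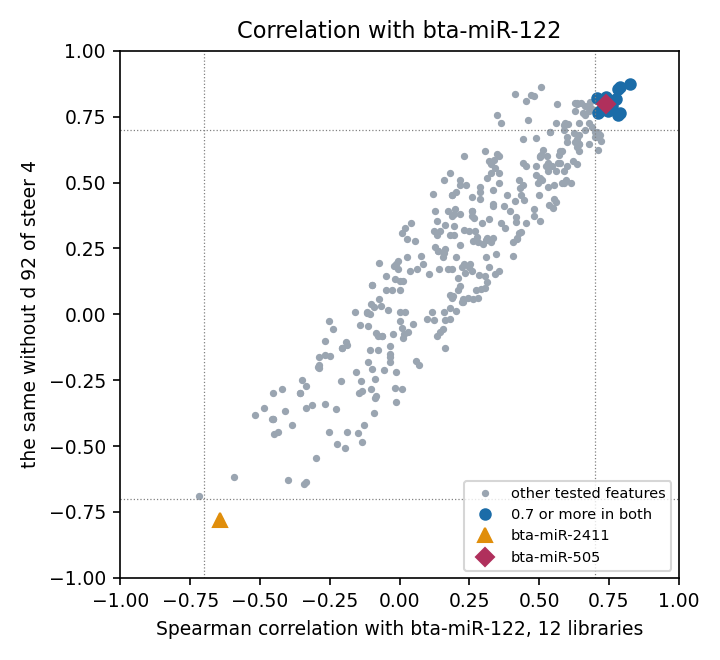
Spearman correlation of each of 359 tested miRNA features with bta-miR-122 over 12 libraries (horizontal) and over the 11 without d 92 of steer 4 (vertical), with dotted lines at 0.7 and -0.7. The 15 features taken are at the upper right, bta-miR-505 among them, and bta-miR-2411 is at the lower left.

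MI0005033 had levels of 10.98, 9.64, 10.04 and 11.09 in steers 1 to 4 at d 0, of 10.29, 10.34, 10.46 and 10.70 at d 92, and of 10.12, 10.65, 10.77 and 10.81 at d 124. Its lowest libraries were those of steers 2 and 3 at d 0 and of steer 1 at d 124. They were also the lowest of bta-miR-122, an order that the rule chose MI0005033 for. At d 92 of steer 4 MI0005033 ranked 5 of 12.

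The order of the libraries that the 15 features share with bta-miR-122 is what the rule chose them for. In the d 92 library of steer 4, where 12 of the 360 tested features were at their highest, 0 of the 15 were, and they lay there 0.21 to 1.21 below their own highest library. Their SDs were between 0.251 and 0.753, and their mean levels between 4.03 and 12.49. At d 92 against d 0 their log2 differences lay between -0.35 and 0.35, 8 of 15 above 0, with a median of 0.01, beside 138 of 360 above 0 and a median of -0.10 for all tested features. At d 124 against d 0 they lay between -0.29 and 0.74, 10 of 15 above 0, with a median of 0.07, beside 149 of 360 and -0.07. At d 124 against d 92, where the difference of bta-miR-122 was -0.98, they lay between -0.08 and 0.56, 13 of 15 above 0, with a median of 0.11, beside 187 of 360 and 0.01. In limma 0 of the 15 had an unadjusted p under 0.05 in any of these comparisons, against 5.28%, 6.94% and 1.94% of all tested features in the same order. With the means of the times removed, 10 of the 15 had a correlation of 0.7 or more with bta-miR-122, over 12 libraries. With the means of the steers removed 1 of the 15 did, and their range was then 0.13 to 0.76. The rule had chosen the 15 for a high correlation in these libraries, so these counts are no further support. Applied to deviations from time means, the rule took 29 of the 359 other tested features, and to deviations from steer means 5. The median level of the tested features in a library also moved with bta-miR-122 (Spearman correlation 0.66 over 12 libraries) and with the 15 features (0.35 to 0.84), and its part in these correlations was not tested.

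**Figure D5:**
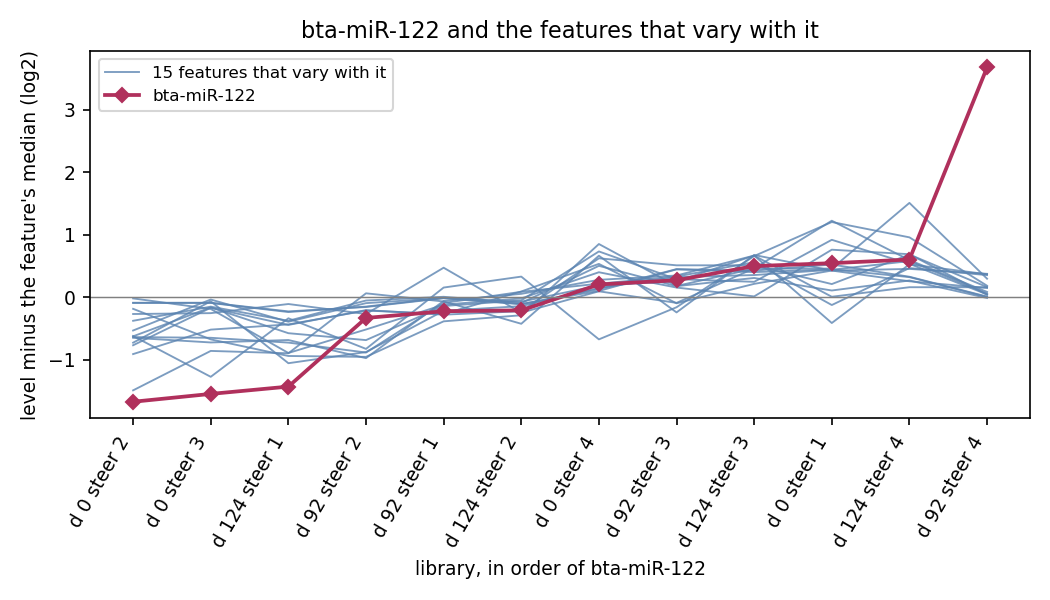
Level minus the feature's median (log2) in the 12 libraries, in order of bta-miR-122 (diamonds), with a thin line for each of the 15 features that vary with it. The features were chosen for following this order, and at d 92 of steer 4, on the right, bta-miR-122 stands 3.68 above its median while the 15 features lie 0.21 or more below their own highest library.

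Of the 17 other miRNAs in the study's tables, all of which were tested, bta-miR-505 was the 1 that varied with bta-miR-122 by this rule (correlation 0.74 over 12 libraries and 0.80 over 11). Its level was 8.28, 7.30, 7.90 and 8.69 in steers 1 to 4 at d 0, 7.79, 7.86, 8.58 and 8.23 at d 92, and 7.62, 7.84, 8.58 and 8.75 at d 124. It was lowest in the same d 0 library of steer 2 as bta-miR-122 and highest at d 124 of steer 4. The most negative of the 17 was bta-miR-2411, with -0.64 and -0.78, at levels between 4.59 and 5.61. It was lowest at d 124 of steer 4 and at d 0 of steer 1, the libraries in which bta-miR-122 ranked 2 and 3. Of the 17, 12 correlations were above 0 and 5 below, with a median of 0.14 beside 0.24 for all tested features. The study chose these 17 on the same libraries.

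Pearson correlations of the log2 values picked another feature. MI0005035, named after its values were seen, was the 1 feature with 0.7 or more both over 12 libraries (0.89) and over 11 (0.73), while its Spearman correlations were 0.71 and 0.62. Its levels were 8.47, 7.86, 7.86 and 8.71 in steers 1 to 4 at d 0, 8.49, 7.77, 8.26 and 9.84 at d 92, and 7.64, 7.62, 8.38 and 8.81 at d 124. Like bta-miR-122 it was highest at d 92 of steer 4 and second highest at d 124 of steer 4. It was first named for its gap at d 92 of steer 4, so its highest value there restates that choice. With the means of the steers removed its Spearman correlation was 0.76, and that of MI0009813 was 0.89. Its log2 difference between d 92 and d 0 was 0.36 (adjusted p = 0.942 from limma), within its spread.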

How the data were processed

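Small RNA of longissimus biopsies was sequenced by the authors on an Ion S5, aligned to bosTau4 and normalized with the Quantile algorithm of StrandNGS; its version and counting rules were not stated. In the deposited file, values are log2 levels minus each feature's median over 12 libraries. Medians were recovered for 1303 of 1314 varying features by matching values to levels shared between libraries (tolerance 3e-06, 3 or more levels). For bta-miR-122, 7 levels matched. Taken as base 2, 82.2% of 1370 tested levels between 6 and 11 were whole twelfths on the linear scale (tolerance 0.05), as means of whole reads over 12 libraries are, against 9.42% of the same levels after a small shift. Since the depth of single libraries cannot be read from these values, no counting intervals are attached.

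The floor was exceeded in 4 or more libraries by 368 miRNA features, of which 360 had a recovered median and were tested with limma 3.58.1 (R 4.3.3; trend on the recovered level, robust, time as the only term, Benjamini-Hochberg over 360). Earlier work on these files had fitted the trend on the deposited means, which the subtraction brings close to 0 for most features; that fit is an alternative. Exact permutation tests, correlations and plots used pandas 2.3.3, numpy 2.4.6 and matplotlib 3.10.9 under Python 3.11.15. Recovery and fit were tested on simulated data. Replicate numbers stand for steers, as the animal number in the sample descriptions shows; deviations of same-steer libraries correlated at a median of 0.116 (12 pairs, -0.049 to 0.442) against -0.025 for different steers (36 pairs). The study's analysis of variance names no steer term, so the fit without the block is reported. Descriptions of the d 92 samples read D90; the labelled day is used. The rule named bta-miR-122, the features closest to it by correlation and those of the study's tables with a marker role. The 10 closest features were to be named, but 1 is given in full and 1 with its correlations, since most identifiers have no names here. The miRNA, lists and rules were chosen with earlier results of these data known, and the study singled out bta-miR-122 on these libraries, so its tests are not independent of that choice. No sequence is printed because none is in the files used. The study reports bta-miR-122 as significantly up-regulated against d 0 at both d 92 and d 124, by sequencing and by qPCR. The changes it reports are larger than the log2 differences of 1.47 at d 92 and 0.48 at d 124 found here. Neither of these had an adjusted p under 0.05 in limma. The study's qPCR was not analysed here, and the reason for the different estimates was not tested.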

Additional observations from a re-analysis of the deposited data

Results flagged for a closer look

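At d 92, steer 4 had 13.36 for bta-miR-122, and steers 1 to 3 had values between 9.35 and 9.95. The gap between 13.36 and 9.95 made up 0.850 of the range at this time, past the 95% limit of Dixon's test for 4 values. Of 39 groups of 4 libraries tested in this way, for 13 named features at 3 times, this was the 1 that passed. By chance 1 in 20 passes, which makes 1.95 expected among the 39. The group that passed holds the library already seen to be highest. Several of the 13 features were chosen on these same libraries, so the limit and the expected number are only a rough guide.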

How the results depend on the processing

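Alternatives left the direction of bta-miR-122 as it was in each comparison, and adjusted p-values stayed above 0.05 in limma. For the first comparison, centred libraries gave an unadjusted p of 0.049 in place of 0.133. The log2 difference ran from 0.52 to 2.26 at d 92 against d 0 (adjusted p 0.695 to 0.999), from 0.13 to 0.91 at d 124 against d 0 (0.620 to 0.981) and from -1.91 to -0.040 at d 124 against d 92 (0.851 to 1). The outer values 2.26 and -1.91 came from ratios of mean linear levels, which have no test and rest on d 92 replicate 4. With 1 library left out, the ranges were 0.52 to 1.86, 0.13 to 0.91 and -1.38 to -0.040, and the F over 3 times was 0.374 to 1.58. With the replicate block, which pairs libraries of a steer, the differences were 1.47, 0.48 and -0.98 (adjusted p = 0.748, 0.901 and 0.974 from limma), the F was 1.56, and no call changed. Calls at an adjusted p under 0.05 numbered 0 in each alternative run. At an unadjusted p under 0.05 the count at d 124 against d 0 was 25 and became 55 with centred libraries, and at d 124 against d 92 it was 7 and became 4 with log2(value + 10) and 3, 13 and 4 without d 92 replicates 2, 3 and 4, and 11 without d 124 replicate 3.

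The 15 features that vary with bta-miR-122 depend most on the rule. Without its highest library alone 45 passed, and at a limit of 0.6 there were 53 and at 0.8 1. Pearson correlation gave 1 (0 of the 15), deviations from time means 29 (10 of the 15) and deviations from steer means 5 (1 of the 15). Among all 992 small RNA features 86 passed. With 1 library left out, a choice made after seeing the data like the fits on deposited means and on all small RNA features, 12 to 35 passed, with 24 without d 0 replicate 1, 25 without d 0 replicate 4 and 35 without d 92 replicate 4.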
